A study of Mus musculus with 2 samples.

Results

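The ephrins are the membrane-bound ligands of the Eph receptor tyrosine kinases, and mice have 5 ephrin A genes and 3 ephrin B genes. They were taken as the 8 genes whose GENCODE M21 gene name is Efna1, Efna2, Efna3, Efna4, Efna5, Efnb1, Efnb2 or Efnb3, out of 55536 annotated genes. Each name matched 1 gene. The study measured polyadenylated RNA of whole mouse midbrain (strain B6NCrl, pooled male and female embryos, 12.5 days of gestation) in 2 libraries of 1 group, replicate 1 pooled from 120 embryos and replicate 2 from 88. No allele was altered, no treatment was given and no second condition was measured. A ratio between the libraries therefore compares those libraries and not conditions. Pooling also means that neither library shows the spread between single embryos, or where within the midbrain a gene was expressed.

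Ephrin A proteins are held in the membrane by a lipid anchor and bind mainly EphA receptors, whereas ephrin B proteins cross the membrane, carry a cytoplasmic tail and bind mainly EphB receptors. Contact between cells sends a forward signal into the cell with the receptor and a reverse signal into the cell with the ephrin, and cleavage of either protein lets the cells part. In the dorsal midbrain, graded ephrin A proteins guide the axons that arrive from the retina, and ephrin B proteins act in boundaries, vessels and the ventral midline.

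The ephrin genes shared an exon plan in which the optional exons keep the reading frame. Exon 3 of the leading transcript held 66 bases in Efna1, Efna2, Efna3 and Efna5, 69 in Efna4 and 93 in each ephrin B gene. Among the ephrin A genes, a further wholly coding exon 4 was annotated in Efna1 (51 bases), Efna3 (78 bases) and Efna5 (81 bases) but not in Efna2 or Efna4. The wholly coding exon 4 of the ephrin B genes held 126 bases in Efnb1, 114 in Efnb2 and 105 in Efnb3. The following 3 exons are shown because a shorter annotated coding transcript of the same gene lacks each of them, so the transcript shares given further on turn on them. They come from GENCODE M21 on mm10, read 5′ to 3′ on the minus strand, and have no marked bases. Exon 4 of Efna5 lies at chr17:62613316-62613396, exon 4 of Efna3 at chr3:89315808-89315885 and exon 3 of Efna1 at chr3:89272957-89273022.
Efna5: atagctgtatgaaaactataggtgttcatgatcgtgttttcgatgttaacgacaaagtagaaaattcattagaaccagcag
Efna3: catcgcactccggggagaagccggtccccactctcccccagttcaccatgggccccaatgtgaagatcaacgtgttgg
Efna1: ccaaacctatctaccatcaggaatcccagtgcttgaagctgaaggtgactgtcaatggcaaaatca

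The 3 ephrin B genes were more alike over the end of the coding sequence than over the rest of it as a whole. This stretch encodes the end of the cytoplasmic tail and its binding site for PDZ domain proteins. The last 102 coding bases, stop codon included, are shown from GENCODE M21 on mm10, with capitals for bases that are the same in all 3 genes. They lie at chrX:99147426-99147527 on the plus strand for Efnb1, at chr8:8620588-8620689 on the minus strand for Efnb2 and at chr11:69555860-69555961 on the minus strand for Efnb3.
Efnb1: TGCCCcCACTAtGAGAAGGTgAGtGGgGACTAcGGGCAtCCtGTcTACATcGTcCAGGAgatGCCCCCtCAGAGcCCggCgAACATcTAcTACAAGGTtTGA
Efnb2: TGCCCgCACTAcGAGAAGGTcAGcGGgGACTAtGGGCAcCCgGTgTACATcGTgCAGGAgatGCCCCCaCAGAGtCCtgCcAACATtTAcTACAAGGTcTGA
Efnb3: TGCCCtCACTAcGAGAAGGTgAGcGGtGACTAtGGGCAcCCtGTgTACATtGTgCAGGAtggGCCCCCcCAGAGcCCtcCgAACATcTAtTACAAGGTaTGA

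Of these 102 bases, 80 were the same in all 3 genes. Pairs of ephrin B genes shared between 83.3% and 85.3% of them, against 53.6% to 60.2% of aligned positions in the rest of the coding sequence, with a gap counted as a difference. Over the whole coding sequence, the 10 pairs of ephrin A genes shared 53.4% to 58.8% of aligned positions and the 3 ephrin B pairs 56.3% to 62.7%. The 15 pairs of an ephrin A with an ephrin B gene shared 38.8% to 41.5%, where the longer ephrin B coding sequence adds gaps. Among the ephrin A genes the closest pair was Efna2 and Efna3, at 58.8%.

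All 8 ephrin genes reached 1 TPM in both libraries, a limit that 59.4% of the 22028 protein-coding genes also reached. TPM, a level scaled for transcript length and for depth, allows levels of different genes to be compared. Efna2 was the highest at 93.3 ± 9.09 TPM (mean ± SD, n = 2, as for all means here) and Efna1 the lowest at 7.94 ± 0.983 TPM. The order of the 8 genes was the same in both libraries. In these bulk samples, fewer cells of a type and less RNA per cell cannot be told apart.

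Efna2, which with Efna5 forms the ephrin A gradient of the dorsal midbrain, stood at 86.8 TPM in replicate 1 and 99.7 TPM in replicate 2. It lies at chr10:80179482-80190010 on the plus strand (mm10, as for all positions). Its mean level lay above that of 91.9% of protein-coding genes. Efna2 has a single annotated transcript, so its estimate involved no choice between transcripts.

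Efna5 stood at 65.2 TPM in replicate 1 and 90.3 TPM in replicate 2, a mean of 77.8 ± 17.7 TPM, and this was the widest relative spread of the family. It is the longest ephrin gene, with a span of 277134 bases at chr17:62604184-62881317 on the minus strand. Efna2 and Efna5 did not differ beyond their spread, since Efna2 in replicate 1 lay below Efna5 in replicate 2. Within each library Efna2 was the higher of the pair, by 1.33-fold in replicate 1 and by 1.10-fold in replicate 2.

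Efnb3, known from the ventral midline where it keeps axons from crossing, stood at 59.8 and 66.4 TPM in replicates 1 and 2. Its mean was 63.1 ± 4.65 TPM, and it lies at chr11:69554092-69560205 on the minus strand. Efnb1, an X-linked gene whose loss disturbs craniofacial boundaries, stood at 49.0 and 54.7 TPM, with a mean of 51.8 ± 4.01 TPM. It lies at chrX:99136130-99148991 on the plus strand. Efnb3 and Efna5 overlapped in level, whereas both Efnb1 values lay below both Efnb3 values.

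Efnb2, which marks arterial endothelium and is also used by neural cells, stood at 23.6 TPM in replicate 1 and 20.9 TPM in replicate 2. Its mean was 22.3 ± 1.90 TPM, and the mean of the ratios of Efnb1 to Efnb2 was 2.34 ± 0.380. It was the only ephrin gene with a higher TPM in replicate 1 than in replicate 2. Efnb2 lies at chr8:8617434-8661242 on the minus strand.

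Efna4, Efna3 and Efna1 formed the low end of the family. Efna4 stood at 12.8 and 13.6 TPM, with a mean of 13.2 ± 0.530 TPM. Efna3 stood at 8.16 and 8.71 TPM, with a mean of 8.44 ± 0.389 TPM. Efna1, first described as a cytokine-induced gene of endothelial cells, stood at 7.24 and 8.63 TPM. Both Efna4 values lay above those of Efna3, whereas Efna3 and Efna1 overlapped. Efna1 rested on 186 and 281 counts, the fewest of the family, and the exact 95% Poisson interval of its level ran from 6.24 to 8.36 TPM in replicate 1. That of Efna2, with 3294 counts in replicate 1, ran from 83.9 to 89.8 TPM. These intervals cover counting error only.

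**Figure D1:**
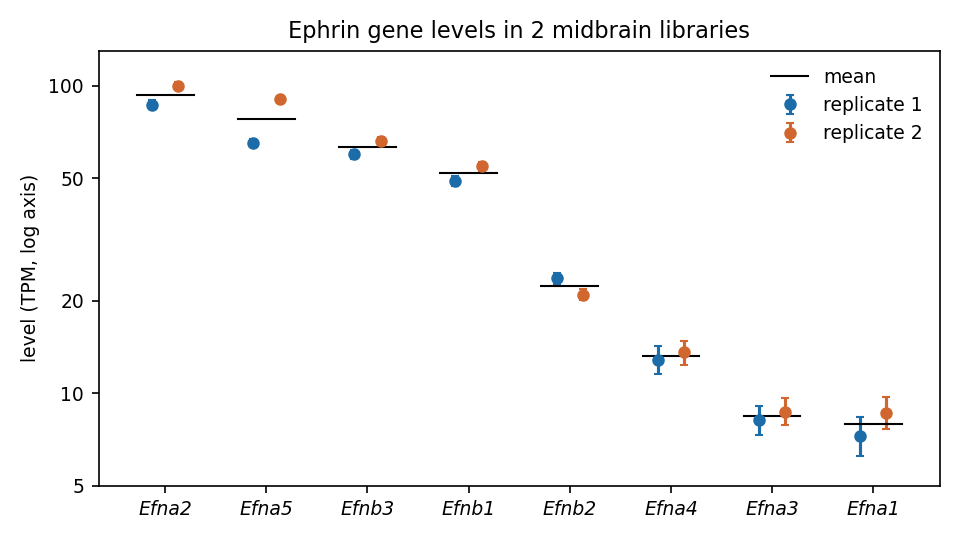
Level of each ephrin gene in TPM on a log axis, with replicate 1 in blue, replicate 2 in orange and a black bar for their mean; error bars are exact 95% Poisson intervals of the count. Efna5 shows the widest gap between libraries, from 65.2 to 90.3 TPM, and Efna4, Efna3 and Efna1 lie below 15 TPM.

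The 3 low genes are neighbours. Efna1 (chr3:89271733-89281142), Efna3 (chr3:89313899-89322965) and Efna4 (chr3:89333390-89338028) all lie on the minus strand within 66296 bases, with gaps of 32756 bases between Efna1 and Efna3 and of 10424 bases between Efna3 and Efna4. Of the 30 other genes within 100 kb of this stretch, coding or not, 19 reached 1 TPM in both libraries. Over all 55536 annotated genes, 15600 did. Genes on the opposite strand overlapped 2 of the 3 ephrin genes. Gm15998, which overlaps Efna3, held 4.22 and 16.2 counts against 315 and 390 for Efna3. 4731419I09Rik, which overlaps the first exon of Efna4, held 12.6 and 25.5 counts against 359 and 480 for Efna4. The strand setting of the counting is not given in the sources used here, so reads of such pairs may not be separable. Within the first and second introns of Efnb2, 3 same-strand gene models that still await experimental support (E230020D15Rik, Gm45073 and Gm45074) were each between 1.41 and 1.64 TPM in both libraries.

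By family, the 5 ephrin A genes summed to 180 TPM in replicate 1 and 221 TPM in replicate 2, a mean of 201 ± 28.7 TPM. The 3 ephrin B genes summed to 132 and 142 TPM, a mean of 137 ± 6.77 TPM. Ephrin A thus took 59.3% ± 2.28 of the ephrin total, and both of its sums lay above both ephrin B sums. Within ephrin A, Efna2 and Efna5 together made up 85.2% ± 1.18. Within ephrin B, Efnb3 made up 45.9% ± 1.13, Efnb1 37.8% ± 1.06 and Efnb2 16.3% ± 2.19.

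Most ephrin RNA was assigned to 1 transcript per gene. The 8 genes have 16 annotated transcripts, 13 of them coding, and Efna2, Efna4 and Efnb3 have 1 each. The transcript share is the percent of a gene's TPM that the deposited tables assign to a transcript. For Efna5, Efna5-201, which includes the 81-base exon shown above, took 99.2% and 99.5%. Efna5-202, which lacks that exon, was assigned 5.38 and 5.42 counts. Its annotated model is 643 bases long against 4032 bases for Efna5-201, and lacks most of the 3280-base last exon of the latter. Reads from most of that exon could be assigned to Efna5-201 alone, and the posterior SD of the Efna5-202 count was 1.49 and 1.46 counts.

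Efna3 had the lowest leading share. Efna3-201, with the 78-base exon, took 89.6% in replicate 1 and 80.5% in replicate 2. The coding transcript that lacks this exon, Efna3-203, was assigned 0 and 3.29 counts, with posterior SDs of 4.04 and 9.52 counts, and so was not told apart from 0. Most of the remainder went to the noncoding Efna3-202, which took 10.4% and 17.1% from only 5.64 and 12.4 counts because its model is 454 bases long. The posterior SDs of those counts were 5.31 and 7.31, so this remainder was uncertain too. As a share of counts rather than of TPM, Efna3-201 took 98.2% and 96.0%.

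Efna1-201, with the 66-base exon, took 94.4% in replicate 1 and 100% in replicate 2. Efna1-203, which lacks that exon, was assigned 9.95 counts in replicate 1, with a posterior SD of 9.35, and 0 in replicate 2. Efna1-202, which begins further upstream and has a shorter coding sequence, was assigned 0 counts in both libraries. The posterior SDs of these zeros were 7.39 counts for Efna1-203 in replicate 2 and 4.20 and 4.11 counts for Efna1-202. The minor Efna1 transcripts were therefore not told apart from 0 within the uncertainty of the assignment.

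In the ephrin B genes the minor shares were mostly noncoding. Efnb1-201 took 93.2% and 95.6%, and the noncoding Efnb1-202 the rest, with 43.9 and 40.2 counts. Efnb2-201 took 94.8% and 96.8%. Efnb2-203, a model of 2818 bases that keeps part of the first intron, held 46.8 and 42.9 counts, and the coding fragment Efnb2-202 held 3.24 and 0.

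**Figure D2:**
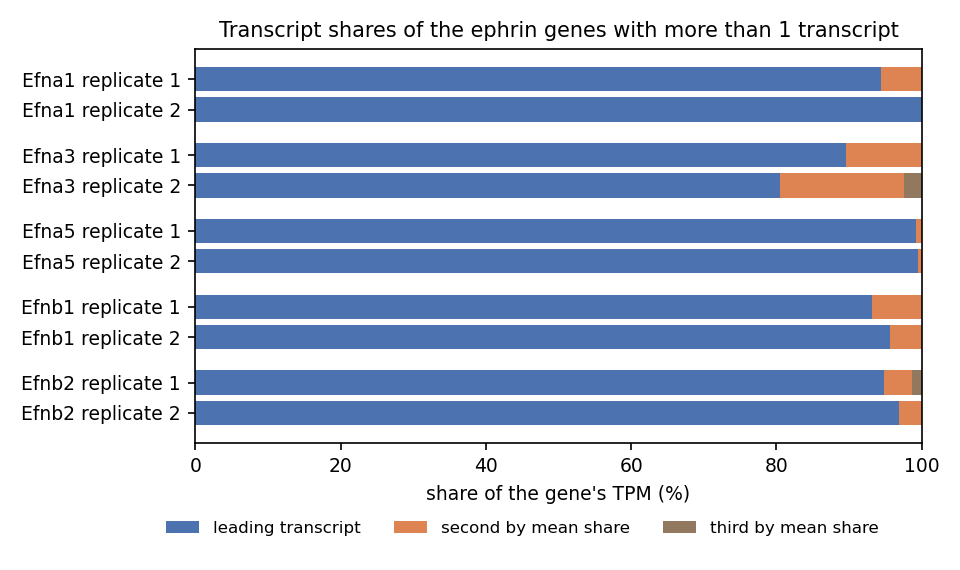
Share of each gene's TPM (%) assigned to its annotated transcripts in each library, for the 5 ephrin genes with more than 1 transcript. The leading transcript fills 80.5% to 100% of every bar, and Efna3 has the largest remainder.

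Between the libraries, Efna5 differed most of the ephrin genes whose interval excluded equality. Ratios used counts scaled by TMM, and 4 genes were higher in replicate 2 and 1 in replicate 1 by a 95% interval that covers counting error only. Among all 19885 genes with enough counts, 16.7% were higher in replicate 2 and 15.5% in replicate 1 by the same rule. Such calls depend on depth, and every ephrin gene told apart held more than 1000 counts in each library. Of the 6762 genes with at least 1000 counts in both libraries, 1320 were higher in replicate 2 and 1796 in replicate 1. None of the 8 ephrin genes differed 2-fold, as 4.23% of all tested genes and 2 of the 6762 genes with at least 1000 counts in both libraries did. The median absolute log2 ratio of the 8 genes was 0.17, against 0.14 over all tested genes and 0.07 over those 6762 genes.

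Efna5 held 4757 counts in replicate 1 and 8342 in replicate 2, a log2 ratio of replicate 1 over replicate 2 of −0.45 (95% interval −0.50 to −0.40). Of the 6762 genes with at least 1000 counts in both libraries, 0.946% lay as far from equality. Efna2 had a log2 ratio of −0.17 (−0.24 to −0.11), Efnb1 of −0.16 (−0.23 to −0.09) and Efnb3 of −0.12 (−0.19 to −0.06). These 4 were higher in replicate 2 under every scaling tried.

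Efnb2 went the other way under 3 of the 4 scalings, with a log2 ratio of 0.18 (0.09 to 0.27) under TMM, but of −0.09 (−0.18 to −0.00342) when scaled to the ERCC spike-ins. With the spike-ins as reference, the median over all tested genes went from −0.01 to −0.28 on the log2 scale. There, 3.40% of the genes told apart were higher in replicate 1, against 48.1% under TMM. A change of scaling moves the ratios of all genes by the same amount, so the place of Efnb2 relative to that median could not change. Under TMM, Efna1 (−0.23), Efna4 (−0.06) and Efna3 (0.06) were not told apart, at intervals of −0.51 to 0.04, −0.26 to 0.14 and −0.16 to 0.27. Spike-in scaling placed Efna1 and Efna4 with those higher in replicate 2. Efna3 had a slightly higher TPM in replicate 2 but a ratio above 0 by counts under TMM. Its effective length was 2065 bases in replicate 1 and 1898 bases in replicate 2, with its transcript mix.

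**Figure D3:**
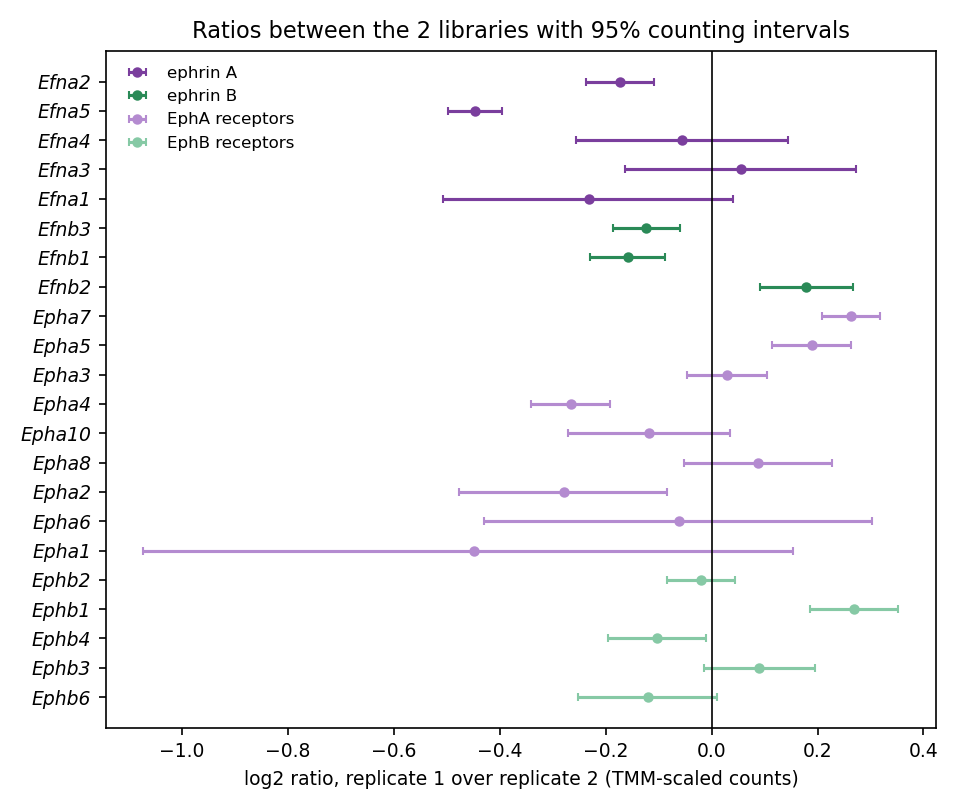
Log2 ratio of replicate 1 over replicate 2 from TMM-scaled counts for the ephrin genes and the Eph receptor genes, with 95% counting intervals; the vertical line marks equality. Efna5 lies at −0.45 and Efnb2 at 0.18, and the latter turns to −0.09 under spike-in scaling.

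Other genes moved between the libraries in the direction of Efna5. Among 9 genes known to pattern the dorsal midbrain or to act upstream of ephrin A there, 6 were higher in replicate 2 and 2 in replicate 1. En1 and En2, the homeobox factors known to raise ephrin A in the posterior tectum, had log2 ratios of −0.50 each and stood at 5.60 and 8.06 TPM and at 1.14 and 1.64 TPM. Fgf8, the signal of the midbrain-hindbrain border, went against them with a log2 ratio of 0.68 on 77 and 62 counts. Otx2, the highest of this list at 143 TPM, had a log2 ratio of 0.07, and Pax2, the lowest at 0.25 TPM, was not told apart. Of 12 mesenchyme and meninges markers, 11 were higher in replicate 2, with a median log2 ratio of −0.45 and summed levels of 1045 and 1480 TPM. None of those 12 was at 0. The part of either list in the Efna5 difference was not tested.

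Of the markers of cell type and position, 2 with large differences are given here, chosen after their values were seen. Pax6, from the progenitor list, stood at 57.2 TPM in replicate 1 and 16.9 TPM in replicate 2. Foxa2, a floor plate gene from the midbrain list, had a log2 ratio of −1.05. Of the 10 progenitor markers, 5 were higher in replicate 1 and 4 in replicate 2 under TMM, with a median log2 ratio of 0.04. Their summed levels were 2902 and 2903 TPM. Vessel markers are given beside Efnb2 (0.18 under TMM). Of 10 endothelial markers, 6 were higher in replicate 2 and 1 in replicate 1 under TMM, the latter Kdr at 0.13, with summed levels of 157 and 176 TPM. Of 6 arterial markers, 3 were higher in replicate 2 and none in replicate 1, with summed levels of 92.7 and 111 TPM. The arterial genes Dll4 (0.17) and Sox17 (0.15) lay on the replicate 1 side but were not told apart. All other arterial markers lay on the replicate 2 side. Gja4 (−0.45), Hey1 (−0.44) and Jag1 (−0.07) were told apart and Gja5 (−0.20) was not. The part of vessel cells in the Efnb2 ratio was not tested. Of 10 neuronal markers, 6 were higher in replicate 1 and 2 in replicate 2 under TMM, with a median log2 ratio of 0.07. Of 8 erythroid markers, 6 were higher in replicate 2 and none in replicate 1, with summed levels of 14917 and 17483 TPM. All 10 midbrain markers reached 1 TPM in both libraries, and 8 of them were higher in replicate 2 and 2 in replicate 1 under TMM, with a median log2 ratio of −0.30. Otx2, En1, En2, Pax3 and Pax7 of this list are also in the dorsal midbrain list given above, so the 2 lists are not separate sets. The part of these lists in the ephrin ratios was not tested. The 8 hindbrain Hox and Egr2 genes summed to 0.600 and 0.540 TPM with none detected. Total expected counts were 30274342 and 38421860.

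Receptors for both ligand families were present. Of 9 EphA receptor genes, 8 reached 1 TPM in both libraries, with Epha7 the highest at 63.0 ± 6.56 TPM and Epha1 the lowest at 0.835 ± 0.304 TPM. Epha7 had the largest ratio of the list, at 0.26 on the log2 scale, and Epha1 the smallest at −0.45 (−1.07 to 0.15). By counts under TMM, 2 of the 9 were higher in replicate 1, 2 in replicate 2 and 5 were not told apart. The EphA genes summed to 185 and 180 TPM and overlapped the ephrin A sums. The ratio of receptor to ligand was 1.02 in replicate 1 and 0.813 in replicate 2.

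All 5 EphB receptor genes were detected, from Ephb2 at 30.9 ± 0.665 TPM down to Ephb6 at 14.8 ± 1.94 TPM. Ephb1 had the largest log2 ratio, 0.27, and Ephb6 the smallest, −0.12 (−0.25 to 0.01), which was not told apart. Under TMM, 1 of the 5 was higher in replicate 1, 1 in replicate 2 and 3 were not told apart. The EphB genes summed to 111 and 112 TPM, below both ephrin B sums, with a ratio of receptor to ligand of 0.839 and 0.790.

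**Figure D4:**
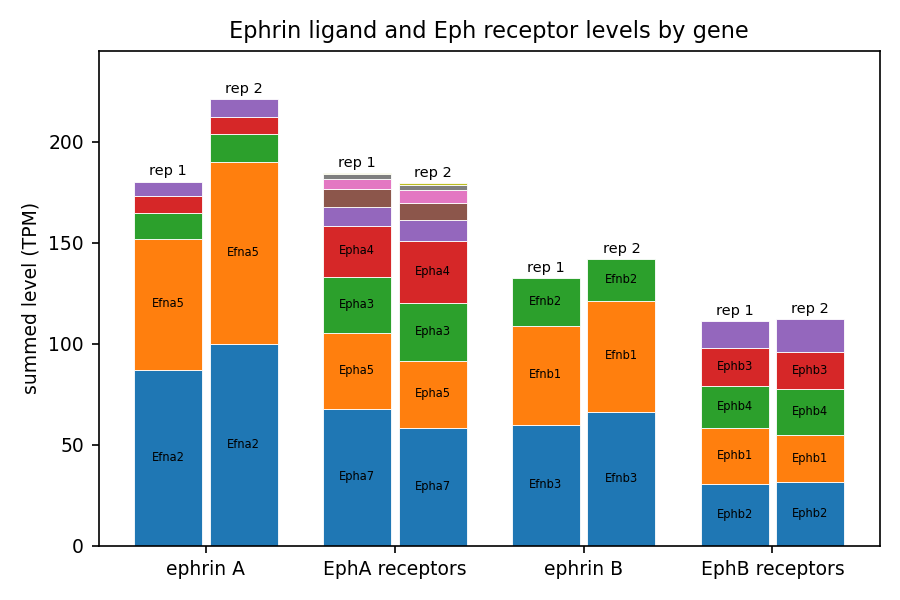
Summed level in TPM of the ephrin A, EphA receptor, ephrin B and EphB receptor genes, with a bar for each library and a segment for each gene in order of mean level (genes at 17 TPM or less are not named; colours only separate segments). Efna2 and Efna5 fill most of the ephrin A bars, of 180 and 221 TPM, and the EphB bars of 111 and 112 TPM are the lowest.

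Genes that carry the signal onward were mostly present. Of 21 forward signalling genes, 20 were detected, from the adaptor Crk at 109 TPM to the guanine nucleotide exchange factor Arhgef16 at 0.325 TPM. Under TMM, 7 were higher in replicate 1 and 2 in replicate 2. Ngef, the exchange factor ephexin-1 that acts below EphA receptors, had the largest log2 ratio, 0.41. Arhgef16 had the smallest, −1.05 (−2.34 to 0.10) on 9 and 24 counts, and was not told apart. Of 11 reverse signalling genes, all were detected, from the PDZ protein gene Sdcbp at 237 TPM to Grip2 at 1.61 TPM. Under TMM, 2 were higher in replicate 1, with the kinase gene Fyn at 0.25, and 1 in replicate 2, Pick1 at −0.09.

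All 7 genes of ephrin and Eph cleavage were detected, with the membrane metalloproteinase gene Mmp14 the highest at 67.1 TPM and Adam12 the lowest at 2.50 TPM. Under TMM, 3 were higher in replicate 1, with Adam12 at a log2 ratio of 0.45, and 1 in replicate 2. That one was Mmp2, at 34.8 and 50.1 TPM and a log2 ratio of −0.54, and it is also expressed by mesenchyme.

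The sequence around the ephrin start sites differed in CG content. RefSeq windows of 300 bases around annotated starts (GRCm38.p6) matched 7 of the 8 genes, in 9 windows. Efnb3 had no window and is left out of what follows on windows. The dinucleotide CG, which reads the same on both strands, occurred a median of 7 times over all 32851 windows. It occurred 38 times at Efna5, 35 at Efnb2 and 31 at Efna2, numbers that 4.95%, 6.95% and 10.6% of windows reached. Efna4 held the fewest at 11, a number that 41.4% of windows reached, and Efnb1 held 14. Efna1 had 2 windows with 20 each, and Efna3 had 2 with 34 and 22. The order of these numbers was not the order of the levels, since Efnb2 exceeded Efna2 in CG number and Efnb1 exceeded Efnb2 in level. In the leading transcripts, G and C made up 44.8% of Efna5, the lowest of the family, and 58.5% of Efna2, the highest, against a median of 50.4% over 58797 coding transcripts.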

How the data were processed

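For each of the 2 midbrain libraries the authors deposited a gene and a transcript table against each of GENCODE M21 and M4 on mm10, per the file headers and the manifests deposited with them. Per the labels, 10 ng of RNA was primed with oligo-dT, fragmented by tagmentation and spiked with ERCC controls. Per the file headers, the deposited values are expected counts (estimated reads, not scaled), TPM, FPKM and each transcript's percent of the TPM of its gene, with the posterior SD of the count. The quantification tool, its version and its strand setting are not given in the sources used here.

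M21 was the main annotation. Rows naming no gene, nearly all ERCC, took 4.02% and 3.38% of counts and were left out of library sizes. Deposited TPM was used as given. Ratios used expected counts rounded to whole numbers, TMM scaling (edgeR 4.0.16, R 4.3.3) and at least 10 counts in a library. Their 95% intervals were exact conditional binomial (Clopper-Pearson) intervals. The intervals were checked on counts simulated with Poisson noise alone, so the check does not cover differences beyond that noise. The 2-fold rule also required the interval to exclude equality. The 2 libraries differed beyond sampling noise (chi-square per degree of freedom 8.81 over 19885 genes), and with 1 group no test across conditions was possible. Alternatives were M4, rescaled TPM, FPKM, DESeq2 1.42.0 size factors, total counts, ERCC totals, other minimum counts and each library alone.

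Coding sequences were built from the M21 annotation and transcripts and aligned pairwise with Biopython 1.88. A comparison of proteins was planned, and that of coding bases was made in its place. Promoter windows came from RefSeq. The members and lists were chosen with earlier results of these data known. The text names all 8 members, genes overlapping them and, per pathway list, the highest and lowest level and the largest and smallest ratio. En1, Pax6, Foxa2, Kdr and the arterial markers were named after their values were seen. Pax3 and Pax7 were named because 2 lists hold them.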

Additional observations from a re-analysis of the deposited data

How the results depend on the processing

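All 8 ephrin genes were detected under M4 and at a limit of 5 TPM. A limit of 0.5 TPM, rescaled TPM and either library alone also gave 8 but could not have given fewer. The main rule already asks for 1 TPM in both libraries, and rescaling raises every TPM. The order by deposited FPKM was that by TPM in both libraries. It could not differ, since within a library FPKM and TPM differ by a constant factor. The summed ephrin A level ranged from 180 to 221 TPM and that of ephrin B from 132 to 142 TPM over the libraries taken alone. Rescaling TPM over annotated genes, which removes the spike-ins from the total, raises every gene of a library by the same factor. This brought the mean ephrin A sum to 220 TPM, within its spread. The mean ephrin B sum rose to 151 TPM, more than its smaller spread. The ratios between libraries need both, so no library could be left out of them.

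The number of ephrin genes told apart between the libraries was 5 under TMM, DESeq2 size factors, total counts and M4. It was 7 under ERCC totals. The other settings, no minimum count and a minimum of 50 counts, could not change the main number. Even Efna1, with the fewest counts, held 186 and 281. Under ERCC totals Efnb2 turned from 0.18 to −0.0905 on the log2 scale, and Efna1 (−0.50) and Efna4 (−0.33) became higher in replicate 2. This scaling moved the ratios of all genes by the same amount. Why the spike-ins gave a different reference from TMM was not tested. M21 extends the main Efnb2 transcript by 469 bases and newly lists Efnb2-203, and the gene's counts were 11.9% and 12.6% higher than under M4. Its TPM was lower under M21, at 23.61 and 20.93 against 24.26 and 21.45 under M4. The ratio of M4 to M21 TPM was 1.03 and 1.02 for Efnb2. The median of that ratio over genes detected in both annotations was 1.05 in each library. Efnb2-201 took 99.4% of the TPM of Efnb2 under M4. The minor transcripts of Efna1, Efna3 and Efna5 rest on fewer than 15 counts each, which limits the precision of their shares. No paired analysis was possible because there is only 1 group.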
